A study of Mus musculus with 2 samples.

Results

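Cell cycle genes were measured in single T cells sorted from adult mouse skin and lung, and 49 of them are described here by the phase in which they act. They comprise 17 genes of S phase, 23 genes of G2 and mitosis (G2/M) and 9 regulators of G1, out of 27514 genes listed for both tissues. All 49 were matched by gene identifier, and none was at 0 unique molecular identifiers (UMIs, tags that count captured RNA molecules) in either library. The cells are those with at least 1 UMI of Cd3d, Cd3e and Cd3g together, the CD3 chains of the T cell receptor complex: 6400 of 6601 skin barcodes and 8349 of 8730 lung barcodes.

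The skin library came from the back skin of Foxp3-CreERT2GFP C57Bl/6 mice and the lung library from Foxp3-GFP C57Bl/6 mice of a strain that the labels name Tachilla. Neither group carried a stated treatment, and both were digested with collagenase and sorted on GFP, CD4, CD3 and CD45, where GFP reports Foxp3, the lineage factor of regulatory T cells (Tregs). There was 1 library per tissue, so no test of a difference between tissues was possible, and tissue, strain, library and annotation cannot be told apart. Intervals in brackets are exact 95% intervals that cover counting error only. How many animals gave each library is not given in the sources used here.

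Dividing cells copy their DNA in S phase and separate the copies in mitosis, and each step has its own set of genes. S phase genes encode the replicative helicase (Mcm2 to Mcm7), the clamp that holds the polymerase on DNA (Pcna) and the enzymes that make DNA building blocks (Tyms, Rrm1, Rrm2), and many of them are targets of E2F factors. G2/M genes encode cyclins, mitotic kinases, spindle motors and kinetochore proteins. Many are held down in resting cells by the DREAM complex, which binds CHR elements, while NF-Y binds CCAAT boxes. G1 regulators set whether a cell enters the cycle: D-type cyclins with Cdk4 and Cdk6 push it in, and the inhibitors Cdkn1a (p21), Cdkn1b (p27), Cdkn2c (p18) and Cdkn2d (p19) oppose them.

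The cells of the skin library held 15820166 UMIs (2078.5 in the median cell) and those of the lung library 23434633 (2370). Foxp3 was detected in 5.70% of the skin cells and in 3.62% of those from lung. In CPM, which are UMIs scaled to the library total, Cd4 stood at 165 in skin and 109 in lung, and Cd8a at 0.0632 and 1.41. Markers of other cell types differed between the libraries: the 8 fibroblast markers summed to 2153 CPM in skin and 81.7 in lung, and the 8 lung epithelial markers to 4.804 and 3761, with 6 of these 8 at 0 in skin. Cells that held at least 2 different markers of 1 such type numbered 776 in skin and 1712 in lung. Of the barcodes, 82 sequences occur in both tissues, 75 of them among the cells used.

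The promoters of the members differed by phase, and 5 are shown because they hold letter matches to elements through which many S phase or G2/M genes are known to be switched. RefSeq promoter entries (GRCm38.p6) were matched for 15 of the 17 S phase genes, 20 of the 23 G2/M genes and 7 of the 9 G1 regulators, and the 250 bases before the RefSeq start were searched on both strands. By GENCODE some of these windows lie wholly or partly inside a gene, those of Mcm7, Cdc6 and Hells among them. Capitals mark an E2F site (TTTCCCGC, TTTCGCGC, TTTGCCGC or TTTGGCGC), a CHR (TTTGAA) or a CCAAT box (CCAAT), or their reverse complement, and 2 marked E2F sites overlap in Mcm5 and in Mcm6.
Mcm5, chr8:75109259-75109508, plus strand: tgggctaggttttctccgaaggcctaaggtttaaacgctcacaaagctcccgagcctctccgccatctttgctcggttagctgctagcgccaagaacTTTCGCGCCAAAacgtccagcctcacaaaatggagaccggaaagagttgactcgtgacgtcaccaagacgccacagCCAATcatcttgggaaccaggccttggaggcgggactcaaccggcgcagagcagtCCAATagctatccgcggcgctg
Mcm6, chr1:128359706-128359955, minus strand: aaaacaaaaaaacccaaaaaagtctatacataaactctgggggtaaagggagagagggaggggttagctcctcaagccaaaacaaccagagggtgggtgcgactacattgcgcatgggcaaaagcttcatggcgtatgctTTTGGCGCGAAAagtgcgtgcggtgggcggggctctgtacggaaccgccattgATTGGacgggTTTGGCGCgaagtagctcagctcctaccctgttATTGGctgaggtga
Top2a, chr11:99024190-99024439, minus strand: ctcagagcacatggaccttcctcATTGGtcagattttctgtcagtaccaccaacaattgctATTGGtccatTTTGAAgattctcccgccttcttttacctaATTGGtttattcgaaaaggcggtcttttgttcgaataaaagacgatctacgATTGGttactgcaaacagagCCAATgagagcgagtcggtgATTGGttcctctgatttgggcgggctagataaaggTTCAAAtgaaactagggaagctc
Mki67, chr7:135716380-135716629, minus strand: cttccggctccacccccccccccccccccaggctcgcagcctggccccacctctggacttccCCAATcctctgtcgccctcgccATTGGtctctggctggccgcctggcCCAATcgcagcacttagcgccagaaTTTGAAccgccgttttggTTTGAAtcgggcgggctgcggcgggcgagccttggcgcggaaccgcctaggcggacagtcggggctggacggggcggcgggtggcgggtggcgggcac
Ccnb2, chr9:70421555-70421804, minus strand: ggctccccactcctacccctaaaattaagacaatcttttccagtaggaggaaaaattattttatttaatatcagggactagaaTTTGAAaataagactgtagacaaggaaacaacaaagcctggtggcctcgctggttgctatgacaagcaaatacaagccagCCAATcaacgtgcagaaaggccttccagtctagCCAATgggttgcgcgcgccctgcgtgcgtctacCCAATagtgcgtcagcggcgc
An E2F site was present in 5 of 15 S phase promoters (33.3%), in 1 of 20 G2/M promoters (5%), in 0 of 7 G1 regulators and in 1.91% of all 27025 promoters. The S phase matches were in Mcm5, Mcm6, Mcm7, Cdc6 and Hells, and within bases outside every GENCODE gene those of Mcm5 and Mcm6 remained. A CHR together with a CCAAT box was present in 8 of 20 G2/M promoters (40%), in 2 of 15 S phase promoters (13.3%), in 0 of 7 G1 regulators and in 5.73% of all. Within bases outside every GENCODE gene both remained in Top2a, Mki67, Cdk1, Ccnb2, Kif11 and Cdc20 and, for S phase, in Mcm2. The CHR of Ube2c and Cks1b did not remain. A CCAAT box, with or without a CHR, was found in 18 of 20 G2/M promoters (90%), against 34.5% of all. These are matches of letters and do not show binding.

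Cells with several S phase genes were more frequent in skin, while cells with several G2/M genes were about as frequent in both tissues. At least 3 different S phase genes were found in 689 skin cells, 10.8% (10.0 to 11.6), and in 431 lung cells, 5.16% (4.70 to 5.66), a share 2.09 times as high in skin. At least 3 G2/M genes were found in 216 skin cells, 3.38% (2.95 to 3.85), and in 265 lung cells, 3.17% (2.81 to 3.57). The intervals were apart for S phase and overlapped for G2/M. Cells with none of the 40 phase genes made up 29.8% of skin and 38.0% of lung cells.

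The order was the same at equal depth. With each cell thinned to 1000 UMIs, at the cost of 0 skin and 76 lung cells that were shallower, the share with at least 3 S phase genes was 2.19% (1.84 to 2.58) in skin and 0.798% (0.618 to 1.01) in lung. For G2/M it was 1.03% (0.798 to 1.31) and 1.00% (0.800 to 1.24), and at 2000 UMIs 3.14% (2.58 to 3.77) and 2.32% (1.95 to 2.74), with overlapping intervals. Thinned to 1000 UMIs outside mitochondrial and ribosomal protein genes, an alternative added after the values were seen, the S phase shares were 4.22% and 1.93% and the G2/M shares 1.504% and 1.496%. Among barcodes without a CD3 UMI, which serve as the background from free RNA and other cells, at least 3 S phase genes were found in 1 of 67 in skin (1.49%, 0.0378 to 8.04, median 1300 UMIs) and in 9 of 292 in lung (3.08%, 1.42 to 5.77, median 1806 UMIs). For G2/M the background was 0 of 67 in skin, which allows a share of up to 4.48%, and 2 of 292 in lung (0.685%, 0.0831 to 2.45). The lung G2/M share of 3.17% lies above that interval, but inside the one from the 187 such barcodes that also held 2 or more markers of another type (2 cells, 1.07%, 0.130 to 3.81). The lung S phase share of 5.16% lies inside the interval of its background, and thinned to 1000 UMIs no barcode without a CD3 UMI reached 3 genes of either phase, 0 of 67 and 0 of 237, which allow up to 4.48% and 1.27%. The thinned shares of each tissue lie below its limit.

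**Figure D1:**
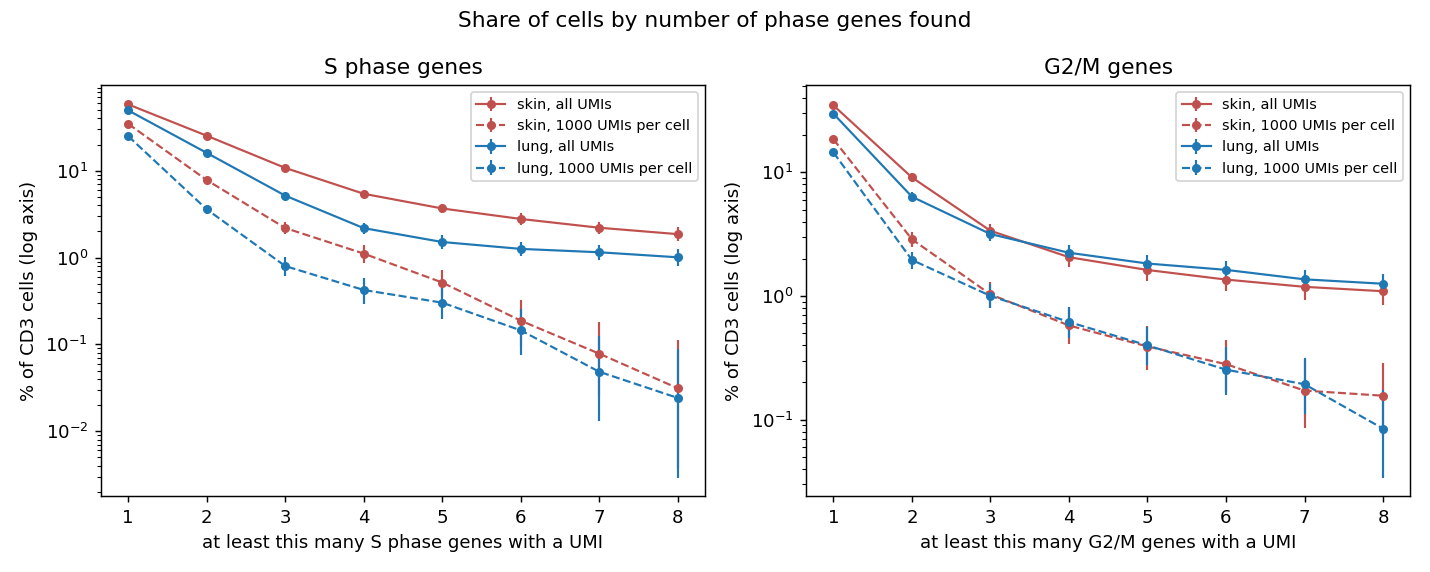
Percent of CD3 cells (log axis) with at least the number of S phase genes (left) or G2/M genes (right) on the x axis, for skin and lung, with all UMIs (solid lines) or 1000 UMIs per cell (dashed lines); bars are exact 95% intervals. The skin lines lie above the lung lines for S phase, at 10.8% against 5.16% for 3 genes, and the G2/M lines meet at 3 genes, at 3.38% and 3.17%.

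Most of the difference lay in cells that held S phase genes with few G2/M genes. At least 3 S phase genes with fewer than 3 G2/M genes were found in 8.56% (7.89 to 9.27) of skin and 3.33% (2.96 to 3.74) of lung cells. At least 6 S phase genes with fewer than 3 G2/M genes were found in 81 skin cells, 1.27% (1.01 to 1.57), and in 13 lung cells, 0.156% (0.0829 to 0.266). Cells with at least 6 S phase and at least 3 G2/M genes made up 1.52% (1.23 to 1.85) of skin and 1.10% (0.889 to 1.35) of lung cells. Of the cells with at least 6 S phase genes, 97 of 178 in skin (54.5%, 46.9 to 62.0) also held 3 or more G2/M genes, against 92 of 105 in lung (87.6%, 79.8 to 93.2). These shares depend on the number of genes asked for, and the lung share was the higher at 3 genes too. Of cells with at least 3 S phase genes, 141 of 689 in skin and 153 of 431 in lung also held 3 or more G2/M genes. Of cells with at least 3 G2/M genes, 44.9% (38.2 to 51.8) in skin and 34.7% (29.0 to 40.8) in lung held 6 or more S phase genes.

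This class was chosen after the values were seen, so its shares are a description. With 2000 UMIs per cell, where 2956 skin and 2540 lung cells were too shallow, it held 1.13% (0.806 to 1.54) of skin and 0.258% (0.145 to 0.426) of lung cells, and the G2/M genes accompanied 6 or more S phase genes in 33.9% (22.1 to 47.4) and 66.7% (51.0 to 80.0). Without the cells that held markers of another type the class was 52 of 5624 skin cells (0.925%) and 10 of 6637 lung cells (0.151%). At 1000 UMIs per cell it held only 10 and 7 cells, 0.156% and 0.0846%, with overlapping intervals.

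**Figure D2:**
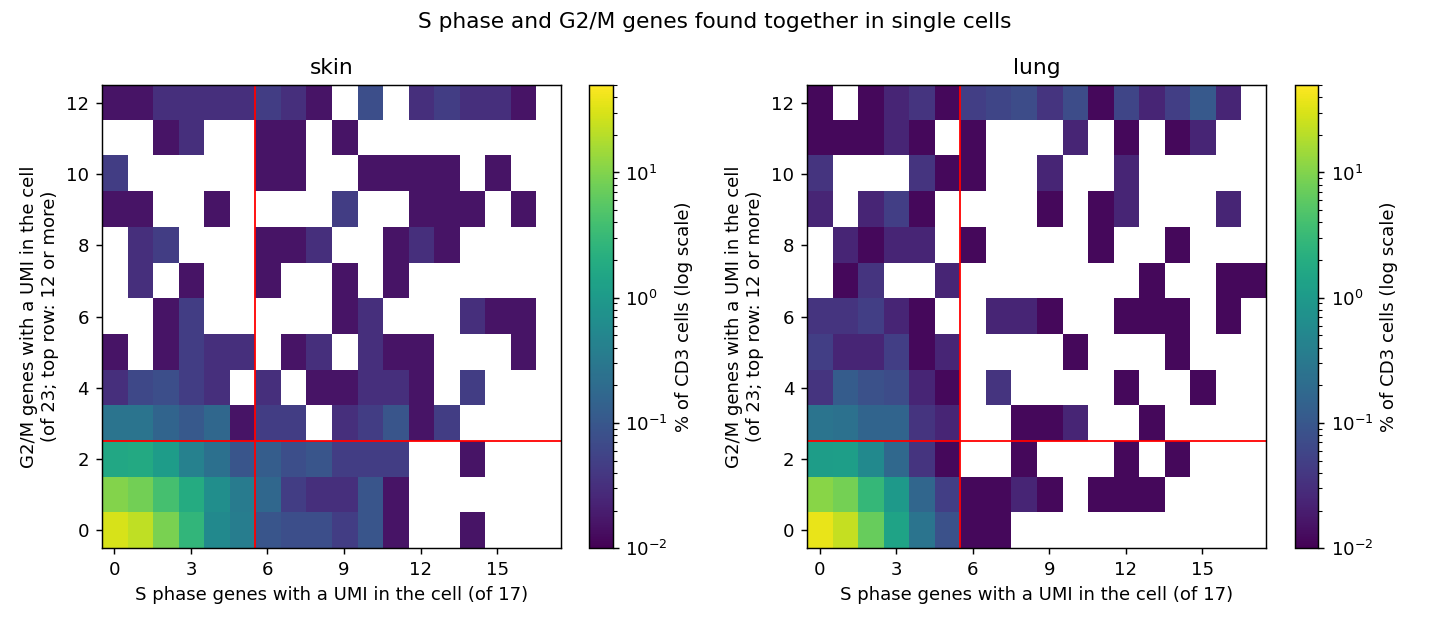
Percent of CD3 cells (color, log scale) by the number of S phase genes (x axis) and G2/M genes (y axis, 12 or more in the top row) found in the same cell, in skin (left) and lung (right); white squares hold no cell and red lines mark 6 S phase and 3 G2/M genes. The lower right field holds 81 skin cells (1.27%) and 13 lung cells (0.156%).

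The 81 skin cells just described held single genes at unlike shares. Mcm6 was found in 81.5%, Pcna in 81.5%, Mcm2 in 76.5% and Dut, which hydrolyses dUTP and so keeps uracil out of DNA, in 75.3%. Cdc6, a helicase loader, was found in 7.41% and Cdc45, a helicase cofactor, in 12.3% of them. Of the G2/M genes, Cks2, a small subunit of cyclin-dependent kinases, was found in 28.4%, Top2a, the topoisomerase that untangles sister chromatids, in 20.99%, and Cenpa, the centromeric histone, in 6.17%. Ccna2, Cenpf, Cenpe, Bub1, Plk1, Tpx2 and Kif11 were found in none of the 81 cells, which allows a share of up to 3.70% for each. The selection of these cells fixed that S phase genes are high and G2/M genes low. In the 13 lung cells of this kind Mcm6, Pcna and Mcm2 were found in 76.9% each and Dut in 84.6%.

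Levels were compared next as UMIs summed over all cells of a library and divided by the library total. A member was counted when log2 of (CPM + 1) differed by at least 2-fold, with a floor of 5 CPM in one of the libraries that 40 of the 49 members passed: 16 S phase, 16 G2/M and 8 G1 genes. Past 2-fold toward skin were 8 of them, Hells, Rrm1, Top2a, Mki67, Ccnd2, Cdk6, Cdkn1a and Cdkn2c, and toward lung 1, Ube2c. Of all 9317 genes tested, 17.9% were that much higher in skin and 6.25% in lung, so 8 of 40 members was close to the share of all genes on the skin side, and 1 of 40 was below it on the lung side. A summed level does not tell apart more cells with a gene from more RNA per cell.

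The scaling matters for these levels. By library totals the median of all genes tested was 0.36 (log2) toward skin, and 74.1% of the genes past 2-fold were higher in skin. Scaled by the median of ratios the split was 50.5% and the median -0.02, with 10.7% and 10.5% of genes past 2-fold in skin and lung, and by totals without mitochondrial and ribosomal protein genes it was 49.7% and -0.03, with 11.3% and 11.5%. Under both, 5 members stayed past 2-fold on the skin side and 1 on the lung side: Rrm1, Top2a and Mki67 were then within 2-fold.

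**Figure D3:**
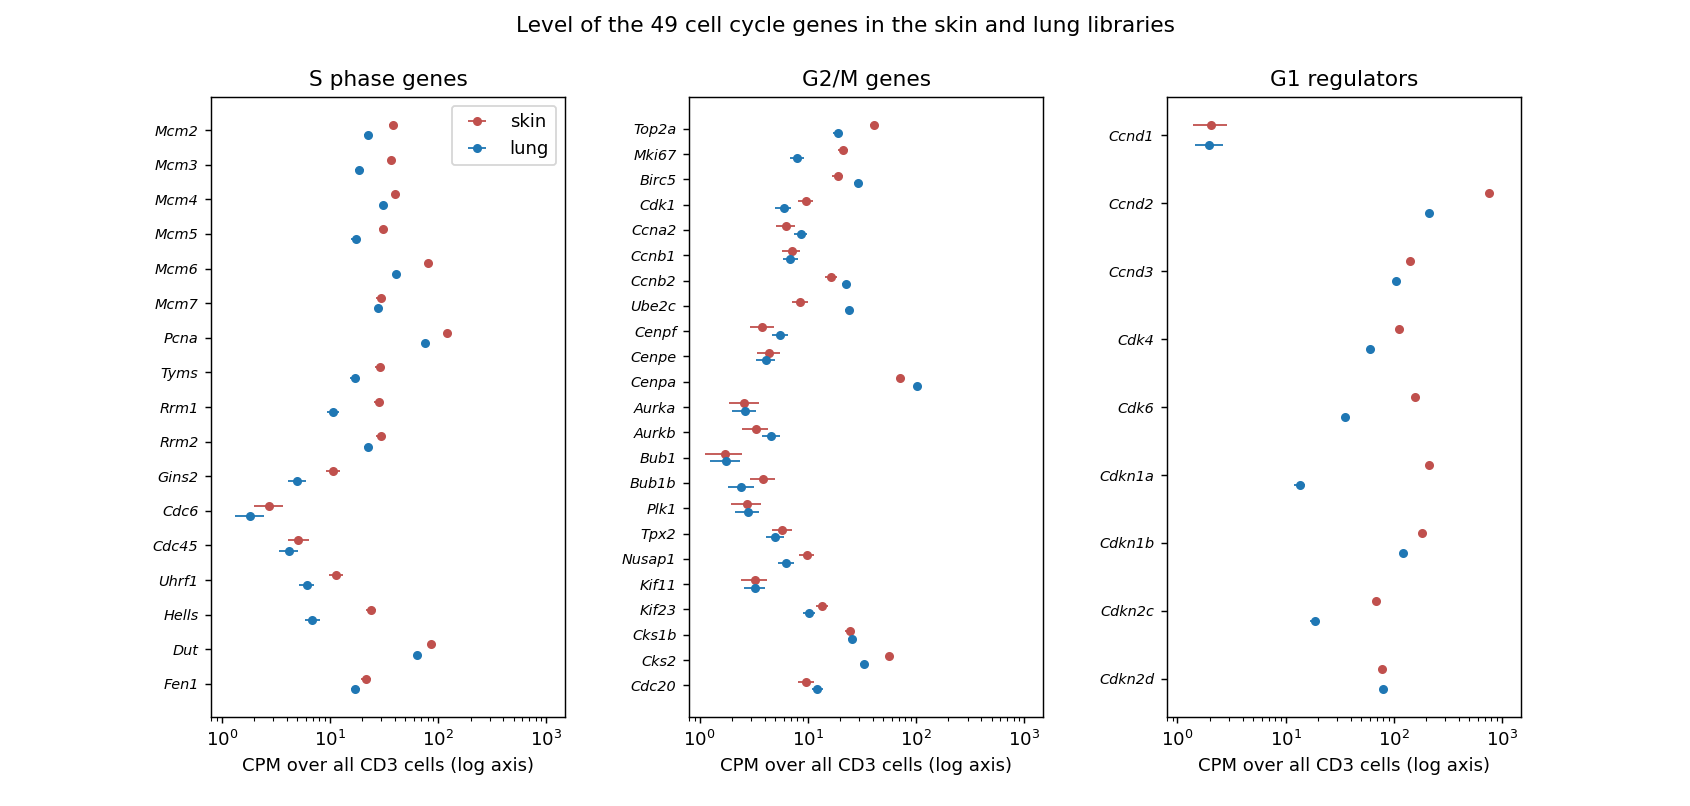
Level of each of the 49 genes in CPM (log axis) over all CD3 cells of skin and lung, by phase; bars are exact 95% Poisson intervals. The skin point lies to the right of the lung point for all 17 S phase genes by library totals, although Mcm4, Mcm7, Cdc45 and Fen1 lie on the lung side when scaled by the median of ratios; G2/M genes lie on both sides.

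S phase genes were higher in skin by library totals for 17 of 17 members, with a median log2 ratio of 0.73 and intervals above 1 for 14, while the median of all genes was 0.36. The share of all genes with a ratio or an interval above 1 is not given here. With that median a ratio above 1 was common among all genes, so these counts do not set S phase genes apart. Hells, a chromatin remodeler needed for DNA methylation, stood at 23.9 CPM (21.5 to 26.4) in skin and 6.87 (5.85 to 8.02) in lung, a ratio of 3.48 (2.88 to 4.21). It lies on chromosome 19 from 38930915 to 38971051 on the plus strand (GRCm38). Rrm1, the large subunit of ribonucleotide reductase, stood at 28.3 CPM in skin and 10.6 in lung, a ratio of 2.66 (2.27 to 3.12), while the small subunit Rrm2 had 29.6 and 22.7, a ratio of 1.30 (1.15 to 1.48). The large subunit thus differed more than the small one.

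The helicase subunits, which act as 1 ring, had unlike ratios. Mcm3 stood at 37.1 CPM in skin and 18.6 in lung (1.99, 1.76 to 2.26), Mcm6 at 80.1 and 41.2 (1.94, 1.79 to 2.12), Mcm5 at 30.9 and 17.4 (1.78, 1.56 to 2.03) and Mcm2 at 38.5 and 22.7 (1.69, 1.504 to 1.90). Mcm4 had 40.2 and 31.3 (1.29, 1.15 to 1.43) and Mcm7 29.6 and 28.1 (1.05, 0.934 to 1.19), and both went to the lung side when scaled by the median of ratios, at -0.02 and -0.29 (log2). Mcm7 overlaps Cops6 and Ap4m1 on the other strand, and whether counting used strand is not given in the sources used here. Of the subunits, Mcm7 was thus the one whose interval included 1.

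The other S phase genes lay between these. Pcna stood at 120 CPM in skin and 75.1 in lung (1.60, 1.496 to 1.71), and Gins2, a subunit of the helicase complex, at 10.7 and 4.99 (2.14, 1.68 to 2.73), just within 2-fold once 1 CPM was added. Tyms, thymidylate synthase, had 28.8 and 17.03 (1.69, 1.48 to 1.94), and Uhrf1, which brings the methyltransferase Dnmt1 to newly copied DNA, 11.3 and 6.10 (1.85, 1.48 to 2.33). Dut had 86.1 and 63.9 (1.35, 1.25 to 1.45) and Fen1, the flap endonuclease, 21.6 and 17.2 (1.26, 1.08 to 1.46). Intervals included 1 for Cdc45, with 5.12 and 4.18 CPM, and for Cdc6, with 2.72 and 1.83 CPM and 43 UMIs in each library. Scaled by the median of ratios the S phase median was 0.36, and Cdc45 and Fen1 were at -0.07 and -0.05.

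Cells with a Foxp3 UMI, 365 in skin and 302 in lung, gave a different picture of summed levels. Among them the S phase median was 0.03 and 2 S phase genes were past 2-fold in skin and 1 in lung, and of 19 G2/M genes tested 1 was past 2-fold toward skin and 10 toward lung. The G2/M median was -0.82. Of all 9428 genes tested in these cells, 1995 were past 2-fold toward skin and 828 toward lung, and their median was 0.33. The share with at least 3 S phase genes in these cells was 15.6% (12.05 to 19.8) in skin and 7.95% (5.16 to 11.6) in lung. For G2/M it was 4.11% (2.32 to 6.69) and 5.30% (3.06 to 8.46). These were 15 skin and 16 lung cells, so few cells with several G2/M genes entered the sums. The S phase share kept the order seen in all cells, whereas the G2/M share was higher in lung, with intervals that overlapped.

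G2/M genes had no common direction: 10 of 23 ratios were above 1 and 13 below, with a median log2 ratio of -0.01, intervals above 1 for 7 and below 1 for 7. The matching shares of all genes are not given here. The median was -0.30 when scaled by the median of ratios, -0.33 by totals without mitochondrial and ribosomal protein genes and 0.38 in sums of cells thinned to 1000 UMIs, where that of all genes was -0.02, -0.03 and 0.37. Ube2c, the ubiquitin-conjugating enzyme of the anaphase-promoting complex, stood at 8.47 CPM (7.10 to 10.0) in skin and 24.2 (22.3 to 26.3) in lung, 2.86 times as high in lung (2.37 to 3.48). It was within 2-fold in cells without markers of other types and in cells thinned to 1000 UMIs, at -0.94 and -0.80 (log2). Ube2c lies on chromosome 2 from 164769898 to 164778822 on the plus strand and overlaps Tnnc2 on the other strand. Birc5, the survivin subunit of the chromosomal passenger complex, had 19.0 and 28.8 CPM, 1.52 times as high in lung (1.33 to 1.75), Ccnb2, a mitotic cyclin, 16.4 and 22.6 (1.38, 1.19 to 1.61), and Cenpa 71.1 and 103 (1.45, 1.35 to 1.56). These 4 genes kept the lung direction in all 12 alternatives run.

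On the skin side of the G2/M set were Top2a, Mki67, Cks2, Cdk1 and Nusap1. Top2a stood at 41.0 CPM (37.9 to 44.3) in skin and 19.0 (17.3 to 20.8) in lung, a ratio of 2.16 (1.91 to 2.44). Mki67, the proliferation antigen that coats mitotic chromosomes, had 21.4 and 7.98, a ratio of 2.68 (2.23 to 3.22). Cks2 had 56.1 and 33.0 (1.70, 1.54 to 1.87), Cdk1, the kinase that starts mitosis, 9.54 and 5.97 (1.60, 1.26 to 2.03), and Nusap1, a spindle protein, 9.86 and 6.32 (1.56, 1.24 to 1.97). Top2a and Mki67 kept the skin direction in all 12 alternatives, while Cks2, Cdk1 and Nusap1 were on the lung side among cells with a Foxp3 UMI.

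The kinases and checkpoint genes were low in both libraries. Aurka had 2.59 CPM in skin and 2.60 in lung, Plk1 2.72 and 2.77, and Bub1 1.71 and 1.75, with 27 to 65 UMIs each and intervals that included 1. Bub1b, a spindle checkpoint kinase, had 3.86 and 2.43 (1.59, 1.09 to 2.32), and Aurkb, the kinase of the passenger complex, 3.29 and 4.61, 1.40 times as high in lung (0.998 to 1.99). The cyclins Ccna2 and Ccnb1 differed from each other: Ccna2 had 6.26 and 8.62, 1.38 times as high in lung (1.08 to 1.77), and Ccnb1 7.08 and 6.91, a ratio of 1.02 (0.798 to 1.31). Cdc20, the activator of the anaphase-promoting complex, had 9.67 and 12.2, 1.27 times as high in lung (1.04 to 1.55). Kinase levels this low cannot show a difference smaller than the width of their intervals.

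How far a gene lay in cells with many phase genes was described by the share of its UMIs in cells with at least 6 of the other 39 phase genes. There were 289 such cells in skin and 214 in lung when all 40 genes were counted, which held at most 10.0% and 7.05% of all UMIs. This measure was chosen after the values were seen. G2/M genes were concentrated there, with a median of 70.2% in skin and 77.2% in lung, S phase genes less, at 42.6% and 43.9%, and G1 regulators at 8.18% and 7.30% were near the cells' share of all UMIs.

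Within each phase the genes differed in this. Bub1 had 96.3% (81.0 to 99.9) of its UMIs in such cells in skin and 95.1% (83.5 to 99.4) in lung, and Ccna2 84.8% and 90.6%. Cenpa had 24.1% (21.6 to 26.7) and 31.0% (29.2 to 32.9), and Kif23, a motor of cell division, 24.7% and 27.8%, so that most of their RNA was in cells with few other phase genes. Pcna was similar, at 26.9% and 23.01%, as was Mcm4, at 31.0% and 19.0%. Without Cenpa, Cks1b and Cks2 the share of cells with at least 3 G2/M genes was 1.91% in skin and 2.10% in lung, and without Pcna, Dut and Mcm6 that with at least 3 S phase genes was 4.72% and 2.01%, in the same order as with all genes for S phase.

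Mki67 and Cks2 were spread more widely in skin. Mki67 had 45.6% (40.2 to 51.0) of its UMIs in such cells in skin and 70.1% (62.9 to 76.5) in lung, and in the remaining cells it stood at 12.9 CPM in skin and 2.57 in lung, a ratio of 5.02 (3.71 to 6.90). Cks2 had 29.9% (26.9 to 33.0) and 54.1% (50.5 to 57.6), with 43.4 and 16.3 CPM in the remaining cells. Uhrf1 among the S phase genes had 45.3% and 75.5%. In the cells with at least 6 other phase genes Mki67 was at 98.7 and 80.0 CPM, a ratio of 1.23 (0.971 to 1.57), so its skin excess lay mostly in the other cells.

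Inside the cells with many phase genes, most of the listed G2/M genes stood lower in skin. No share or median of all genes in these cells is given here, so the counts below describe the members only. Of 23, 14 had an interval below 1 and 1, Top2a, above 1, with a median log2 ratio of -0.65, while of 17 S phase genes 8 had an interval above 1 and 2 below. Birc5 stood at 147 CPM in skin and 364 in lung, 2.48 times as high in lung (2.12 to 2.90), and Ube2c at 59.2 and 239 (4.04, 3.22 to 5.12). Of the cells with at least 6 of the 40 genes, 124 of 289 in skin (42.9%) and 21 of 214 in lung (9.81%) held fewer than 3 G2/M genes, so the 2 tissues' cells differed in makeup. Without cells with markers of other types, the counts were 11 and 1 for G2/M and 1 below and 8 above for S phase.

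**Figure D4:**
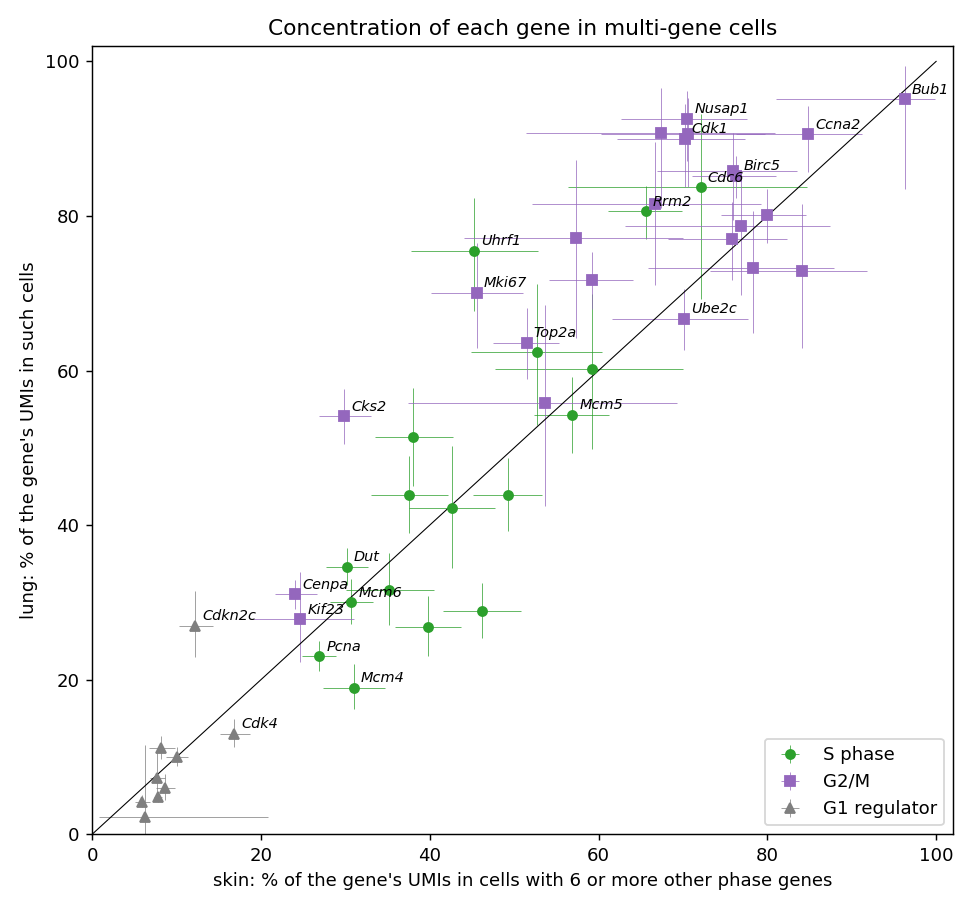
Percent of each gene's UMIs found in cells with at least 6 other phase genes, in skin (x axis) and lung (y axis), for S phase (circles), G2/M (squares) and G1 (triangles) genes; bars are exact 95% intervals and the line marks equal shares. G2/M genes lie highest (medians 70.2% and 77.2%) and G1 regulators near the origin (8.18% and 7.30%), with Cdkn2c apart at 12.2% and 27.0%.

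The 4 widest ratios among the 49 genes by library totals belonged to G1 regulators, and these 4 of 8 tested were past 2-fold toward skin under all 3 scalings. Of all genes, 17.9% by library totals and 10.7% by the median of ratios were that much higher in skin. By totals without mitochondrial and ribosomal protein genes it was 11.3%. Among cells with a Foxp3 UMI 3 of 8 G1 regulators were past 2-fold toward skin, and Cdkn2c was at 0.91 (log2). Ccnd2, the cyclin D2 gene, stood at 760 CPM (746 to 773) in skin and 210 (205 to 216) in lung, a ratio of 3.61 (3.49 to 3.73), and was found in 74.9% and 37.7% of cells. Its partner kinase Cdk6 had 158 and 35.5, a ratio of 4.43 (4.10 to 4.801). The inhibitor Cdkn1a had 209 (202 to 217) and 13.4, a ratio of 15.6 (13.9 to 17.5), and Cdkn2c 68.8 and 18.6, a ratio of 3.69 (3.30 to 4.13). Activators and inhibitors were thus both higher in the skin library. Ccnd2 and Cdk6 each overlap transcripts annotated on the other strand. Other members also overlap a gene on the other strand, among them Gins2, Cdc45, Fen1, Ccna2, Nusap1, Cdc20, Ccnd3 and Cdk4.

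The remaining G1 genes differed less. Cdk4 stood at 111 CPM in skin and 60.8 in lung (1.83, 1.71 to 1.96), Cdkn1b at 183 and 120 (1.52, 1.44 to 1.60) and Ccnd3 at 142 and 106 (1.34, 1.27 to 1.42). Cdkn2d had 78.0 and 78.8, with an interval that included 1, and Ccnd1 had 2.02 and 1.96. Scaled by the median of ratios, Ccnd3 was at 0.04 (log2) and Cdkn2d at -0.39. Ccnd1 rested on 32 UMIs in skin and 46 in lung.

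Cells with at least 3 G2/M genes were then compared with the cells that held none of the 40 phase genes, 216 with 1904 in skin and 265 with 3173 in lung. Genes with at least 50 CPM in either group were used and 10 CPM were added. The median of all genes tested was 0.08 (log2) in skin and 0.35 in lung, toward the cells with G2/M genes. Of 8 G1 genes tested in skin none was 2-fold higher or lower, where 4.88% of all genes were higher and 0.875% lower, and of 6 in lung 1 was higher, Cdkn2c, where 13.5% of all were higher and 3.68% lower. The cells of the first group were deeper, with medians of 4822.5 against 1750.5 UMIs in skin and 6889 against 2141 in lung.

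Cdkn2c stood at 81.3 CPM in skin cells with G2/M genes and 68.0 in those with none, a ratio of 1.19 (0.932 to 1.52), and at 62.3 and 10.2 in lung, a ratio of 6.10 (4.53 to 8.28). In lung it was low outside cycling cells, and in skin it was at a like level in both. Cdk4 was higher with G2/M genes in both tissues, at 1.92 (1.61 to 2.29) and 2.04 (1.71 to 2.42) times. Cdkn1b had 95.1 and 199 CPM in skin and 76.0 and 127 in lung, ratios of 0.479 (0.388 to 0.586) and 0.601 (0.500 to 0.717). Ccnd2 was lower as well, at 0.630 (0.576 to 0.688) and 0.643 (0.563 to 0.733). Cdkn1a had ratios of 0.810 (0.693 to 0.944) in skin and 1.14 (0.698 to 1.80) in lung. The tissues' ratios were not tested against each other.

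The cells with at least 6 S phase and under 3 G2/M genes were set against the same cells with none. Of 8 G1 genes tested in skin none was 2-fold apart, where 3.31% of all genes were higher and 1.98% lower, and of 5 in lung 1 was lower, Cdkn1b, where 13.9% of all were higher and 5.61% lower. In the 81 skin cells Cdk4 was at 186 CPM against 95.4, a ratio of 1.95 (1.51 to 2.497), and Cdkn1b at 108 against 199, a ratio of 0.546 (0.396 to 0.736). Ccnd2 was at 789 CPM against 818, a ratio of 0.965 (0.859 to 1.08), whereas with G2/M genes it was at 515. The lung group is 13 cells, and Cdkn1b rests on 5 UMIs there.

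**Figure D5:**
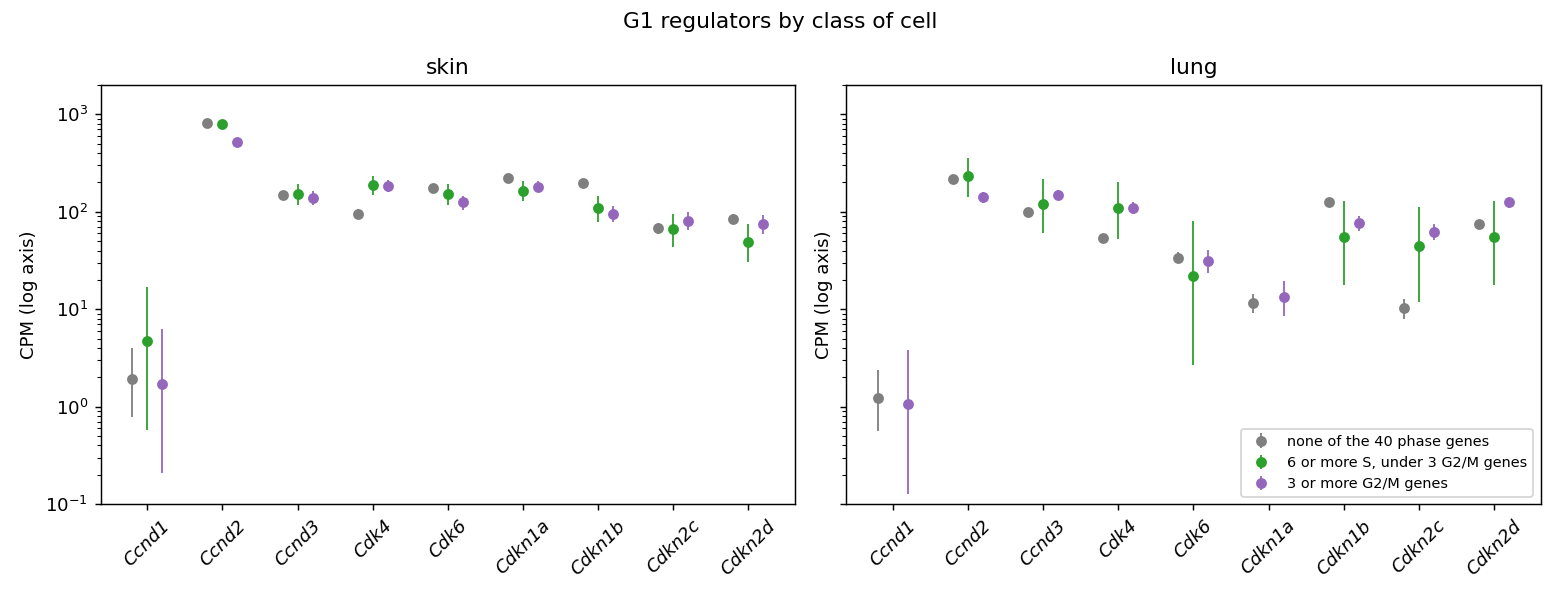
Level of the 9 G1 regulators in CPM (log axis) in cells with none of the 40 phase genes, with at least 6 S phase and under 3 G2/M genes, and with at least 3 G2/M genes, in skin (left) and lung (right); bars are exact 95% Poisson intervals and levels of 0 are not drawn. Cdkn2c in lung is at 10.2 CPM with none and 62.3 with G2/M genes, and in skin at 68.0 and 81.3.

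Markers of other cell types were also present in the cells with G2/M genes. In skin the 8 fibroblast markers summed to 3671 CPM in these cells and 1207 in those with none, with 5 of 6 tested at least 2-fold higher, and 94.4% of their UMIs came from 5 of the 216 cells; the 10 myeloid markers summed to 475 and 75.5, with 94.4% in 5 cells. In lung the 8 epithelial markers summed to 1953 and 3851 CPM, the 8 fibroblast markers to 6.86 and 58.5, and 2 of 265 cells with G2/M genes held 2 or more of the 6 B cell markers. Cd79b of that list, singled out after its values were seen, was found in 11.1% against 1.84% of cells in skin and 18.5% against 1.73% in lung, in cells of unequal depth. At least 2 markers of 1 other type were held by 31.0% of skin and 44.9% of lung cells with G2/M genes, against 8.19% and 17.8% of those with none. Without such cells, 149 skin and 146 lung cells with G2/M genes remained, and Cdkn2c was at 1.01 (0.722 to 1.38) in skin and 6.40 (4.32 to 9.47) in lung, Cdkn1b at 0.516 and 0.602, and Cdk4 at 1.69 and 1.82. The part of depth in these ratios was not tested.

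Other genes of the cycle give the setting for the members. Of 41 other replication genes tested, 5 were past 2-fold toward skin and none toward lung, and their median was 0.51 (log2), against 17.9% and 6.25% of all genes and a median of 0.36. They include E2f1, the activating E2F factor, at 9.73 and 2.90 CPM (3.35, 2.51 to 4.53), Pold3, a polymerase delta subunit, at 25.0 and 9.00 (2.77, 2.34 to 3.29), and Dnmt1, the maintenance DNA methyltransferase, at 39.8 and 16.3 (2.44, 2.14 to 2.77). Of 31 other mitosis genes 4 were higher in skin, among them Lmnb1, lamin B1, at 134 and 42.5 (3.15, 2.92 to 3.40), and 2 in lung, among them Cdc25b, a phosphatase that activates Cdk1, at 19.7 and 54.4 CPM. The counts toward skin of both lists were below the share of all genes.

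Of 14 histone genes of replication tested, 0 were past 2-fold toward skin and 6 toward lung, with 17.9% and 6.25% of all genes, and their median was -0.94 against 0.36. Hist1h1e, a linker histone, had 18.02 CPM in skin and 76.7 in lung, and Hist1h1d 2.21 and 17.8. Histone genes share sequence and their main transcripts lack a poly(A) tail, so their counts by this chemistry are uncertain. Of 34 RB, E2F and quiescence genes 7 were higher in skin, among them Gadd45b, a stress-induced gene, at 707 and 64.8 CPM, and Cdkn2a, the p16 and p19Arf locus, at 7.40 and 0.469, and 3 in lung, among them Tfdp1, the partner of E2F factors, at 2.28 and 22.1 CPM. These counts were near the shares of all genes, 17.9% and 6.25%.

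Against cells with none of the 40 genes, cells with at least 3 G2/M genes were higher in genes that the selection did not use. Of 55 other replication genes 24 were tested in skin and 15 in lung, and 20 and 11 were at least 2-fold higher. Of 68 other mitosis genes 23 and 26 were tested, and 19 and 22 were higher. Among all genes tested 4.88% in skin and 13.5% in lung were higher. A gene near 0 in the cells with none passes the 50 CPM floor only through the cells where it is high. These counts are therefore a description. Pclaf, a Pcna-binding protein, had 459 and 5.25 CPM in skin and 404 and 3.72 in lung, and Stmn1, a microtubule regulator, 1144 and 41.2 in skin and 695 and 21.2 in lung. The antiproliferative genes Btg1 and Btg2 were lower in both, Btg1 at 0.410 in skin and 0.302 in lung. Outside all lists, the 10 genes that led in the lower of both tissues were Hmgn2, Selenoh, Ran, Ddx39, Erh, Hpf1, Ptma, Dek, Lsm2 and Mrpl18. Hmgn2, a nucleosome-binding protein, had 519 and 96.8 CPM in skin and 670 and 132 in lung, ratios of 5.36 (4.69 to 6.13) and 5.07 (4.66 to 5.52).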

How the data were processed

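Single-cell libraries of sorted T cells from skin and lung were made with 10x 3' chemistry, per the labels' protocols. As deposited, the values are UMI counts that were not normalized. The submitters' processing notes name Cell Ranger and mm10, with no version, and the lung file header gives software version 3.0.2. The 27514 gene identifiers in both lists were used, with the lung symbol. A floor of 200 genes took out 1 skin barcode, a ceiling of 10% mitochondrial UMIs took out 133 in skin and 89 in lung, and a CD3 UMI was then required. A second, shallower lung matrix, of whose barcodes 8626 occur in the first, was used only as an alternative. Scrublet (scanpy 1.11.5) called doublets at 0.0309% in skin and 0% in lung and had not worked, so doublets stay in; the 6% of highest scores were left out as an alternative.

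Shares carry Clopper-Pearson, levels Poisson and ratios binomial intervals at 95%, computed in scipy 1.17.1. PCR and cell capture are not covered by them. A limit for 0 is 3 counts. Promoters came from RefSeq and positions from GENCODE M21. All 49 members are named; from other lists up to 4 with the widest ratio could be named, and the 10 leading genes outside all lists. Members and lists were chosen with earlier results of these data known, and the thresholds of 6 genes, the 10 and 50 CPM settings and the motifs after values were seen.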

Additional observations from a re-analysis of the deposited data

Results flagged for a closer look

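For Ctla4 and Icos, both receptors of Treg activation, the ratio of cells with at least 3 G2/M genes over cells with none of the 40 phase genes lay on opposite sides of 1 in the tissues, and each interval excluded 1. Ctla4 was at 0.789 (0.735 to 0.846) in skin and 1.45 (1.33 to 1.58) in lung. Icos was at 0.673 (0.626 to 0.722) in skin and 1.79 (1.63 to 1.96) in lung. All genes tested in this comparison had a median of 0.08 (log2) in skin and 0.35 in lung. In lung a ratio of 1 thus lay below the middle of all genes. The difference was not tested, since each tissue has 1 library, and only the G1 regulators, the 9 Treg genes, Cd4 and Cd8a were looked at in this way. Without cells with markers of other types the ratios were 0.819 and 1.56 for Ctla4 and 0.727 and 1.94 for Icos.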

How the results depend on the processing

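The cause of the movements below was not tested, except where fewer UMIs or another number of genes sets them. Shares with at least 3 S phase genes in skin and lung were 9.23% and 3.89% without cells with markers of other types, 15.6% and 7.95% among cells with a Foxp3 UMI, 2.19% and 0.798% thinned to 1000 UMIs, 9.55% and 2.72% thinned to 2000, 4.22% and 1.93% thinned outside mitochondrial and ribosomal protein genes, and 4.72% and 2.01% without Pcna, Dut and Mcm6. With 2, 4 or 6 genes in place of 3 they were 25.3% and 16.0%, 5.42% and 2.18%, and 2.78% and 1.26%. The shallower lung matrix gave 4.22%. Over the 12 alternatives run in both tissues the skin share was 1.58 to 3.51 times that of lung, with intervals apart.

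For G2/M the same alternatives gave 2.65% and 2.20%, 4.11% and 5.30%, 1.03% and 1.00%, 3.14% and 2.32% at 2000 UMIs, and 1.504% and 1.496%. Without Cenpa, Cks1b and Cks2 they were 1.91% and 2.10%, and with 2, 4 or 6 genes 9.11% and 6.36%, 2.06% and 2.24%, and 1.36% and 1.63%. The intervals overlapped except with 2 genes. Members past 2-fold in skin were 5 of 40 tested under the median of ratios, where 995 of all 9274 genes were. Under totals without mitochondrial and ribosomal protein genes they were 5 of 43, with 1141 of 10077 genes. In sums of thinned cells they were 13 of 36, with 1779 of 9179 genes. Members past 2-fold in lung were 0 of 37 without cells with markers of other types, where 519 of all 8965 genes were. Among cells with a Foxp3 UMI they were 11 of 43, with 828 of 9428 genes. In sums of thinned cells they were 0 of 36, with 621 of 9179 genes. Of 588 values of single members under alternatives, 438 stayed inside the interval of the main ratio, 150 did not, and no member past 2-fold turned its direction. The alternatives with 6 genes, without 3 named genes, and thinned outside mitochondrial and ribosomal protein genes were chosen after seeing the data. No paired analysis was possible because each tissue has 1 library, and for the same reason no library could be left out. Members with few UMIs, such as Bub1 with 27 and 41, are limited by depth.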

Other observations

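Treg genes were set beside the phases as well. Of the 9 Treg genes, 6 were past 2-fold toward skin and none toward lung, against 17.9% and 6.25% of all genes, and their median log2 ratio was 1.54, against 0.36. By library totals Foxp3 stood at 24.1 CPM in skin and 13.3 in lung. In cells with at least 3 G2/M genes, Il2ra, the high-affinity interleukin 2 receptor chain, was at 142 CPM against 197 in cells with none in skin, a ratio of 0.721 (0.605 to 0.856), and at 59.7 against 134 in lung, a ratio of 0.446 (0.364 to 0.542). Tnfrsf4, the OX40 receptor, was at 0.703 in skin and 0.631 in lung. Foxp3 rested on 15 and 18 UMIs in these cells, at 12.96 CPM against 29.3 in skin and 9.50 against 14.1 in lung.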
